A study of Mus musculus with 5 samples.

Results

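The vomeronasal and trace amine receptor genes encode G protein-coupled receptors with which the mouse nose detects pheromones and volatile amines. They were taken as every gene with a mouse symbol that starts with Vmn1r, Vmn2r or Taar and a digit, without pseudogene symbols ending in -ps. The RefSeq table of GRCm38.p6 named 372 such genes, and 368 of them had a row among the 27179 genes of the deposited count tables. These were 230 Vmn1r, 123 Vmn2r and 15 Taar genes. The 1109 olfactory receptor (Olfr) genes, a larger receptor family of the nose, served for comparison.

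H3K14ac is acetylated lysine 14 of histone H3, and its counts came from CUT&Tag, in which the Tn5 transposase is tethered to an antibody and tags the DNA around it. LSK cells, which lack lineage markers and carry Sca-1 and Kit, were sorted from the bone marrow of male C57BL/6 mice and hold blood stem cells and early progenitors. The Hbo1-KO group held 2 libraries of genotype Hbo1def/def; T/+, and the control group 2 libraries of the heterozygous genotype Hbo1def/+; T/+. Mice of both groups had received poly(I:C) to induce Mx1-cre, so the controls carried 1 def allele and the same treatment. Mx1-cre is switched on by interferon and acts in many cell types, not in blood stem cells alone. HBO1 (KAT7) is a lysine acetyltransferase of H3K14. Ages were not given, and nothing in the labels says that libraries came from separate mice, so a p-value reads only how these samples scatter, and that scatter may be technical. A library of the HBO1 protein from control cells was not analysed here.

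Vmn1r and Vmn2r receptors sit in separate layers of sensory neurons in the vomeronasal organ, and most Taar receptors in neurons of the main olfactory epithelium. Each such neuron is known to express very few receptor genes, often from a single allele, while the rest of the family stays silent. In blood cells these families are textbook silent genes, kept in large tandem arrays that grew by gene duplication. An acetylation mark read over them is thus read where little transcription is known to take place.

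The start of these genes looks unlike that of most mouse genes, and the sequences show how. Below are 300 bases around the RefSeq start (250 before and 50 from it onward) of GRCm38.p6, 5′ to 3′ on the gene's strand, in lower case with each CG pair in capitals. Taar5 is shown for the best acetylated family, Vmn1r26 and Vmn2r22 for the largest upstream falls, Vmn2r26 as a relative of Vmn2r22 that was not called upstream, and Vmn1r101 for the arrays of near-copies. Taar5 lies at chr10:23970456-23970755 on the plus strand, Vmn1r26 at chr6:58009153-58009452 on the minus strand, Vmn2r22 at chr6:123650586-123650885 on the minus strand, Vmn2r26 at chr6:124024508-124024807 on the plus strand and Vmn1r101 at chr7:20442544-20442843 on the minus strand.
Taar5: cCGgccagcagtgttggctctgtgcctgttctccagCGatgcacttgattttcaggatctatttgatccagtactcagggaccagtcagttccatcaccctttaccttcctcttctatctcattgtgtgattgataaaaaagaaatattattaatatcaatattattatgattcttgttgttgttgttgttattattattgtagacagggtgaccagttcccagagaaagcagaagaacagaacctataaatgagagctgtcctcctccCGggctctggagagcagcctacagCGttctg
Vmn1r26: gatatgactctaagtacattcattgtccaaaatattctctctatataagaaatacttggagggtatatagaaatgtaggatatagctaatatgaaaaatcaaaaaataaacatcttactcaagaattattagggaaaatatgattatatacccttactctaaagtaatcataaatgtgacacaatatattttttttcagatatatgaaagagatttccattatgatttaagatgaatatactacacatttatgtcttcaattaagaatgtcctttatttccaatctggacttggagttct
Vmn2r22: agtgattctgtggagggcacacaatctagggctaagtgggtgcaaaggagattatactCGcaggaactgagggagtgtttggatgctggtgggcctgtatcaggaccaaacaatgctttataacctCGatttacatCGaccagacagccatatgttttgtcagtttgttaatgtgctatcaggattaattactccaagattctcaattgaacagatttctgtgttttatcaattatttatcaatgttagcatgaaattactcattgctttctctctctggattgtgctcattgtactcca
Vmn2r26: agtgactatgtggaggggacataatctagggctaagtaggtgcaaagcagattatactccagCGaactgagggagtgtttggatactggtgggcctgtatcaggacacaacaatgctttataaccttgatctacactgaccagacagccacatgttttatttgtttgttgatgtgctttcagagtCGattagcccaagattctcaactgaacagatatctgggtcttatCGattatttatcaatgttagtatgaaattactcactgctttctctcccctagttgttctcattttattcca
Vmn1r101: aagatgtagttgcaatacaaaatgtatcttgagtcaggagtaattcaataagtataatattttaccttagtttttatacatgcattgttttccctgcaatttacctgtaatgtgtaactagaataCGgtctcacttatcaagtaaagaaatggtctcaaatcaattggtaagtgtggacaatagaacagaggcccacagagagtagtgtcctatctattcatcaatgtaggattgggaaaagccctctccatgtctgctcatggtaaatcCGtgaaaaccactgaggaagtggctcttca
Taar5 held 4 CG pairs, Vmn2r22 and Vmn2r26 held 3 each, Vmn1r101 held 2, and Vmn1r26 held 0. The stretch from Vmn2r22 could be turned into that of Vmn2r26 with 41 edits over 300 bases. The stretch of Vmn1r101 was identical to that of Vmn1r149, some distance away on the same chromosome.

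Such poverty in CG was the rule in the families. The RefSeq promoter table held 333 stretches of this kind for 332 of the receptor genes, with a median of 1 CG pair against 7 over all 32851 promoters of the table (CG reads the same on both strands). No CG at all was found in 24.02% of the receptor stretches and in 5.43% of all promoters. The median ratio of observed to expected CG was 0.118 for the receptor genes and 0.384 for all promoters, and 1 receptor stretch reached 0.6, as did 35.8% of all promoters. An ATG stood exactly at the annotated start in 292 of the 333 receptor stretches (87.7%) and in 5.83% of all promoters. The deposited lengths gave the same picture, since 91.3% of Vmn1r and 93.3% of Taar lengths were multiples of 3, so for these families a gene body is mostly a coding length. The 5 kb called upstream therefore runs back from a start codon in most of these genes, and the site where transcription begins in the nose lies at an unknown place within or beyond it. Vmn2r genes are long and split by introns (median deposited length 23.6 kb, against 0.924 kb for Vmn1r and 1.05 kb for Taar).

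Read depth was low. The libraries held 869859 to 1164409 counts over upstream regions, 4723549 to 12386891 over gene bodies and 677213 to 1260351 over downstream regions, with the shallowest library in the Hbo1-KO group each time. At Kat7, the gene of HBO1, upstream H3K14ac was 19.3 and 24.4 CPM (counts scaled to a common library size) in Hbo1-KO and 45.1 and 40.6 CPM in control libraries, and its gene body held 88.2 and 39.1 CPM against 30.7 and 30.1 CPM. A histone mark summed over the whole gene does not check a deletion within it. Over upstream regions of all genes, 14.3% of 23200 genes tested were called lower and 24% higher in Hbo1-KO by edgeR's quasi-likelihood test at an adjusted p of 0.05. All CPM are scaled by the trimmed mean of M-values (TMM) within a region class, and they are shares of a library, so that fewer marked cells and less mark per cell cannot be told apart.

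Upstream of 12 LSK marker genes such as Kit and Gata2, the summed level was 1654 and 1059 CPM in Hbo1-KO against 685 and 569 CPM in control libraries. Of the 12, 5 were called higher (Flt3, Gata2, Tal1, Lyl1 and Meis1), beside 24% of all genes tested. The median level of the 12 in controls stood at percentile 71.9 of all genes. The 6 markers of vomeronasal or olfactory neurons (Omp, Trpc2, Gng8, Gng13, Cnga2 and Adcy3) stood at a median percentile of 76.3, with summed levels of 150 and 220.5 CPM in Hbo1-KO and 279 and 280.1 CPM in control libraries. None of the 6 was at 0 upstream, and Cnga2 alone was called, as lower, beside 14.3% of all genes tested. Over gene bodies the median percentiles in controls were 76.2 for the LSK markers and 37.8 for the neuron markers, and downstream 79.1 and 55.2. The lists of other blood cells ran from 24.9 to 93.8 over gene bodies and from 51.2 to 72.4 downstream. The lists read the mark, not RNA, and the part of other cells in the results was not tested.

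With TMM scaling, upstream H3K14ac of the receptor genes was lower in Hbo1-KO, and no receptor gene was called higher. Averaged over genes, Taar genes held 20.5 and 38.3 CPM in the Hbo1-KO libraries and 73.2 and 55.6 CPM in control libraries. Vmn1r genes held 6.60 and 9.42 CPM in Hbo1-KO and 14.6 and 12.5 CPM in controls, and Vmn2r genes 6.03 and 8.75 CPM in Hbo1-KO and 13.5 and 11.7 CPM in controls. In all 3 families both Hbo1-KO libraries lay below both controls, and replicate 1 was the lower Hbo1-KO library. Olfr genes, at 10.51 and 16.9 CPM in Hbo1-KO against 28.8 and 23.6 CPM in controls, lay between Taar and the vomeronasal families.

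**Figure D1:**
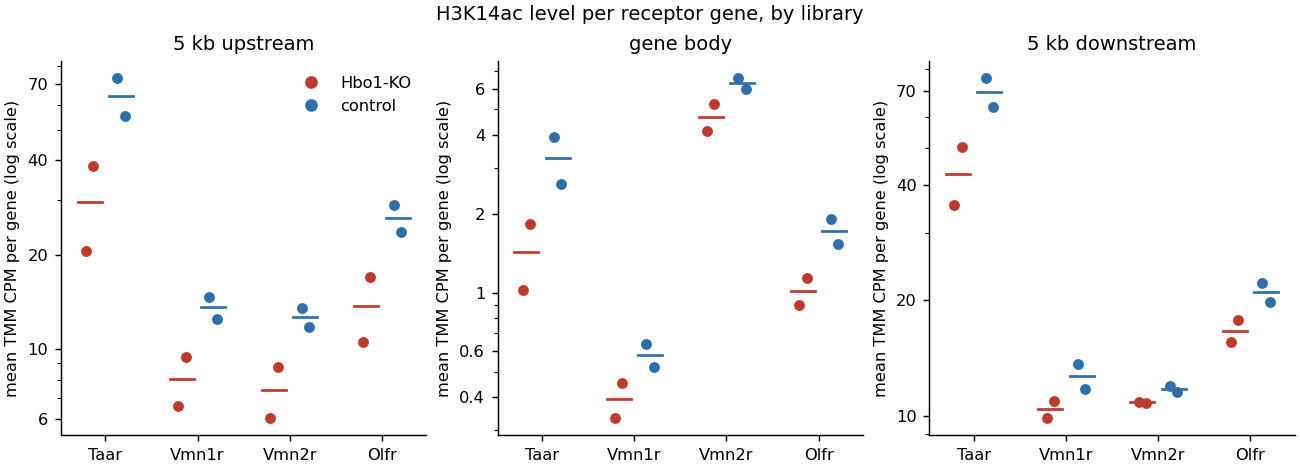
Mean H3K14ac level per gene in TMM CPM (log scale) for the 15 Taar, 230 Vmn1r, 123 Vmn2r and 1109 Olfr genes over 3 region classes. Points are libraries, lines are group means, red is Hbo1-KO and blue is control. Upstream, both Hbo1-KO libraries lie below both controls in every family, with Taar the highest family in each group.

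Of the 368 genes, 156 had enough upstream counts to be tested, namely 101 Vmn1r, 40 Vmn2r and all 15 Taar genes, and 27 had 0 counts in all libraries. Called lower were 42 of the 156, beside 14.3% of all genes tested, and 0 were called higher, beside 24%. At an unadjusted p under 0.05, edgeR gave 63 lower and 0 higher, beside 4920 and 6419 of the 23200 genes. DESeq2's Wald test, run on the 341 receptor genes with a read, called 8 lower and 0 higher. Its share over all genes is not given here. The 42 lower calls went to 24 Vmn1r, 10 Vmn2r and 8 Taar genes, and 211 of 673 Olfr genes tested were lower with 0 higher. Both Hbo1-KO libraries lay below both controls in 111 of the 156, beside 39.9% of all genes, and above both in 0, beside 37.8%. Without any single library edgeR called 0 to 2 of them, 2 when control replicate 1 alone stood for the controls and 0 in the other cases.

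The median log2 fold (Hbo1-KO over control) upstream was -1.16 for Taar, -0.90 for Vmn2r and -0.75 for Vmn1r genes tested, -0.996 for Olfr genes and -0.09 for all genes. A gene can pass the count filter through either group alone, as Vmn1r26 did through the control libraries. Among genes with few reads, this favours those in which the groups differ. These medians, the calls and the counts of genes with groups apart therefore describe only the genes that passed. Without the filter the median was -0.46 for 116 Vmn2r and -0.57 for 210 Vmn1r genes, and -0.573 for all receptor genes with a read, against -0.87 with the filter. All 15 Taar genes passed it. The size also depends on how libraries are scaled. Scaling by library totals, by DESeq2 size factors, by totals pooled over region classes and by the Olfr genes moved the median of all genes to -0.27, -0.026, 0.46 and 0.86 on the log2 scale. A scaling moves all genes nearly alike, so the distance of the receptor genes from that median, -0.78 with TMM and with 143 of 156 below it, is nearly fixed across scalings by construction. On the raw scale the receptor median turned to 0.07 when scaled on the Olfr genes, and 1 receptor gene was then called lower. A correction for GC content brought the distance to -0.33 and the lower calls to 12. GC content of the upstream windows had a median of 37.9% for receptor genes and 44.6% for all genes.

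**Figure D2:**
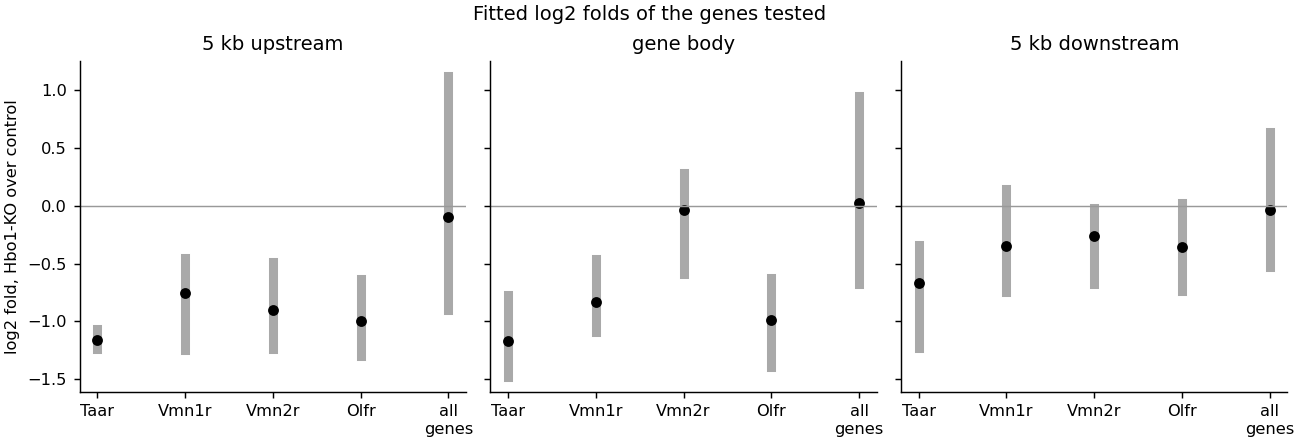
Fitted log2 folds (Hbo1-KO over control) of the genes tested in each region class. Dots are medians and bars run between the quartiles. Upstream medians are -1.16 for Taar, -0.75 for Vmn1r, -0.90 for Vmn2r, -0.996 for Olfr and -0.09 for all genes, and over gene bodies Vmn2r stands at -0.04, apart from the other receptor families.

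Taar genes form a single cluster on chromosome 10 and carried the most acetylation. In the controls the median upstream level of a Taar gene was 62.6 CPM, at percentile 83.8 of all genes, whose median was 25.4 CPM. In Hbo1-KO it was 30.7 CPM, at percentile 51.3, beside a median of 29.7 CPM for all genes. Vmn1r and Vmn2r genes were low in both groups, at percentiles 13.3 and 10.9 in Hbo1-KO and 14.9 and 13.2 in controls.

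All 15 Taar genes had both Hbo1-KO libraries below both controls upstream, with fitted log2 folds from -1.77 to -0.60, and 8 of them passed the test. Taar7b fell most, with 5.68 and 11.1 CPM in Hbo1-KO and 34.7 and 23.2 CPM in controls (log2 fold -1.77 ± 0.56 SE, edgeR adjusted p 0.00732). Taar1, the trace amine receptor of brain monoamine neurons rather than the nose, held 19.3 and 24.4 CPM in Hbo1-KO and 67.7 and 43.1 CPM in controls (log2 fold -1.34 ± 0.47 SE, edgeR adjusted p 0.0172). Taar4, a receptor for phenylethylamine, and Taar7d, Taar7e, Taar7f, Taar8a and Taar8b were the other genes called. Their Hbo1-KO and control values did not overlap in any case.

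Taar6 had the highest upstream level of the family, 56.8 and 69.8 CPM in Hbo1-KO and 177.9 and 106.1 CPM in controls, and was not called (log2 fold -1.16 ± 0.59 SE, edgeR adjusted p 0.101). Taar5, the receptor for trimethylamine, held 19.3 and 54.3 CPM in Hbo1-KO and 79.9 and 74.6 CPM in controls, and was not called either (log2 fold -1.06 ± 0.49 SE, edgeR adjusted p 0.0720). For Taar5 the controls were close together and the Hbo1-KO libraries lay far apart. Taar7f was the gene just inside the threshold (edgeR adjusted p 0.0499) and Vmn1r19 the one just outside (log2 fold -1.10 ± 0.48 SE, edgeR adjusted p 0.0553).

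**Figure D3:**
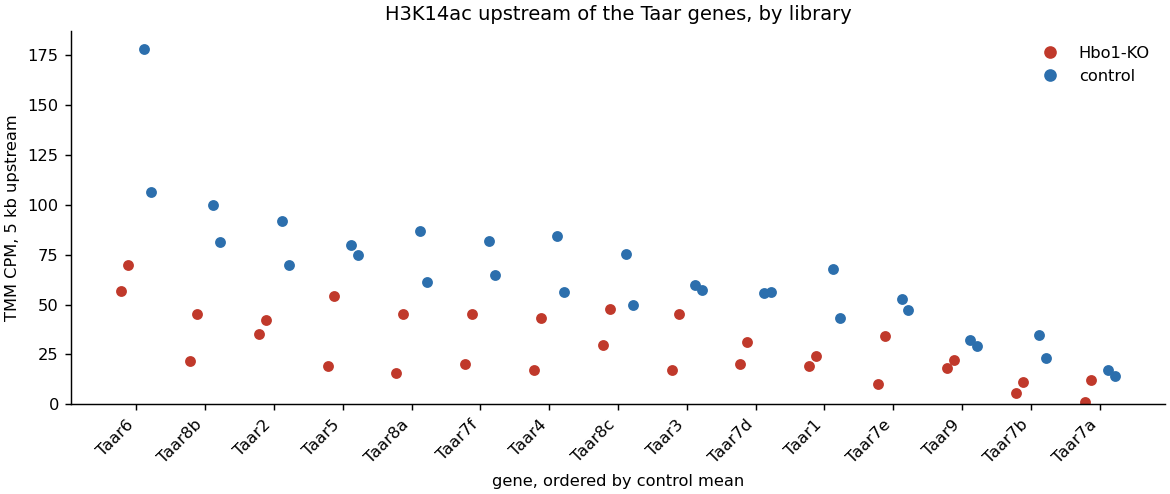
Upstream H3K14ac level (TMM CPM) of the 15 Taar genes, ordered by their control mean. Red points are the Hbo1-KO libraries and blue points the control libraries. The control level runs from 15.7 CPM at Taar7a to 142 CPM at Taar6, and no gene has overlapping groups.

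Among Vmn1r genes, the smallest p upstream went to 4 genes of low to middling level. Vmn1r26 had 2 and 5 reads in Hbo1-KO and 29 and 24 in control libraries, a level of 2.27 and 5.54 CPM against 25.2 and 19.9 CPM (log2 fold -2.48 ± 0.64 SE, edgeR adjusted p 9.41e-04). Vmn1r16 held 9.09 and 13.3 CPM in Hbo1-KO and 51.2 and 29.004 CPM in controls (log2 fold -1.83 ± 0.52 SE, edgeR adjusted p 0.00300). The groups were apart in both, which was a condition for naming them. The Vmn1r26 counts show how few reads such a call rests on.

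Vmn1r237 and Vmn1r25 were lower too, with log2 folds of -1.76 ± 0.52 and -1.84 ± 0.55 (SE) and edgeR adjusted p of 0.00414 and 0.00448. Vmn1r40, the Vmn1r gene with the highest upstream level in controls, held 33.0 and 37.7 CPM in Hbo1-KO and 115 and 82.0 CPM in controls (log2 fold -1.47 ± 0.52 SE, edgeR adjusted p 0.0177). Vmn1r34, next in level in controls, held 21.6 and 47.6 CPM in Hbo1-KO and 85.9 and 72.1 CPM in controls (log2 fold -1.19 ± 0.50 SE, edgeR adjusted p 0.0455). Vmn1r85 and Vmn1r89, receptors of the V1rj group that respond to sulfated steroids, were not called. Vmn1r85 held 21.6 and 41.0 CPM in Hbo1-KO against 68.6 and 51.4 CPM in controls, and Vmn1r89 10.23 and 8.86 CPM against 13.02 and 15.7 CPM.

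Among Vmn2r genes, Vmn2r22 had the largest fall of any receptor gene tested upstream. It had 11 and 16 reads in Hbo1-KO and 122 and 79 in control libraries, which gives 12.5 and 17.7 CPM against 106 and 65.5 CPM (log2 fold -2.49 ± 0.52 SE, edgeR adjusted p 4.21e-05). Its promoter stretch lies 12 edits from that of Vmn2r20, and 74.4% of the 50-base words of its upstream window were found once in the genome, so reads may be shared between copies. Vmn2r26 (V2r1b), a receptor for peptides that bind MHC class I, held 4.55 and 13.3 CPM in Hbo1-KO and 15.6 and 14.9 CPM in controls and was not called (log2 fold -0.76 ± 0.57 SE, edgeR adjusted p 0.276).

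Vmn2r90 on chromosome 17 was high and fell, with 15.9 and 41.0 CPM in Hbo1-KO and 124 and 73.8 CPM in controls (log2 fold -1.79 ± 0.52 SE, edgeR adjusted p 0.00378). Vmn2r88 and Vmn2r82 fell at lower levels, with log2 folds of -1.75 ± 0.53 and -1.84 ± 0.57 (SE) and edgeR adjusted p of 0.00522 and 0.00673. Vmn2r125, annotated as a pseudogene in RefSeq despite its symbol, had the highest level of the family in both groups, with 76.1 and 74.2 CPM in Hbo1-KO and 119 and 124 CPM in controls (log2 fold -0.69 ± 0.58 SE, edgeR adjusted p 0.323). Vmn2r1, a receptor made together with many other Vmn2r receptors, and Vmn2r116, the receptor for the male pheromone ESP1, were not called (log2 folds -0.80 ± 0.52 and -1.38 ± 0.66 SE, edgeR adjusted p 0.199 and 0.0814). Vmn2r116 has close promoter copies among its neighbours, so its reads are uncertain.

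Receptor genes lie in arrays, and their upstream level differed between arrays. Joined at gaps of up to 1 Mb, the genes with a position formed 28 clusters, of which 15 held at least 7 genes. The Vmn1r32 to Vmn1r39 cluster on chromosome 6 averaged 18.9 and 36.7 CPM per gene in Hbo1-KO and 66.3 and 51.0 CPM in controls. The Vmn1r4 to Vmn1r31 cluster of 28 genes, also on chromosome 6, averaged 12.01 and 18.6 CPM in Hbo1-KO and 35.3 and 26.1 CPM in controls, and the Vmn2r19 to Vmn2r27 cluster on the same chromosome 11.4 and 17.2 CPM against 40.2 and 28.2 CPM. The Hbo1-KO mean was 0.474 of the control mean in the first of these, 0.499 in the second, 0.418 in the Vmn2r cluster and 0.457 in the Taar cluster.

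Other arrays were low in both groups, with a wide range of ratios. The Vmn2r111 to Vmn2r117 cluster on chromosome 17 averaged 4.55 and 6.17 CPM in Hbo1-KO and 12.2 and 10.42 CPM in controls, a ratio of 0.475. The Vmn1r188 to Vmn1r223 cluster of 35 genes on chromosome 13 averaged 8.51 and 10.8 CPM in Hbo1-KO and 13.5 and 13.6 CPM in controls, a ratio of 0.713. The chromosome 5 cluster Vmn2r8 to Vmn2r17 averaged 6.14 and 9.42 CPM in Hbo1-KO and 9.55 and 10.7 CPM in controls, a ratio of 0.769. The 86 genes from Vmn1r91 to Vmn1r183 on chromosome 7 averaged 1.45 and 1.79 CPM in Hbo1-KO and 1.69 and 2.02 CPM in controls, and here the groups overlapped. Lower calls went to 8 of 15 genes tested in the Taar cluster, 8 of 28 in Vmn1r4 to Vmn1r31 and 5 of 8 in Vmn1r32 to Vmn1r39. They went to 2 of 7 in Vmn2r19 to Vmn2r27, 2 of 28 in Vmn1r188 to Vmn1r223 and 0 of 3 in Vmn2r8 to Vmn2r17. In Vmn2r111 to Vmn2r117 they went to 0 of 3 and in the 86-gene array to 1 of 3, beside 14.3% of all genes tested.

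**Figure D4:**
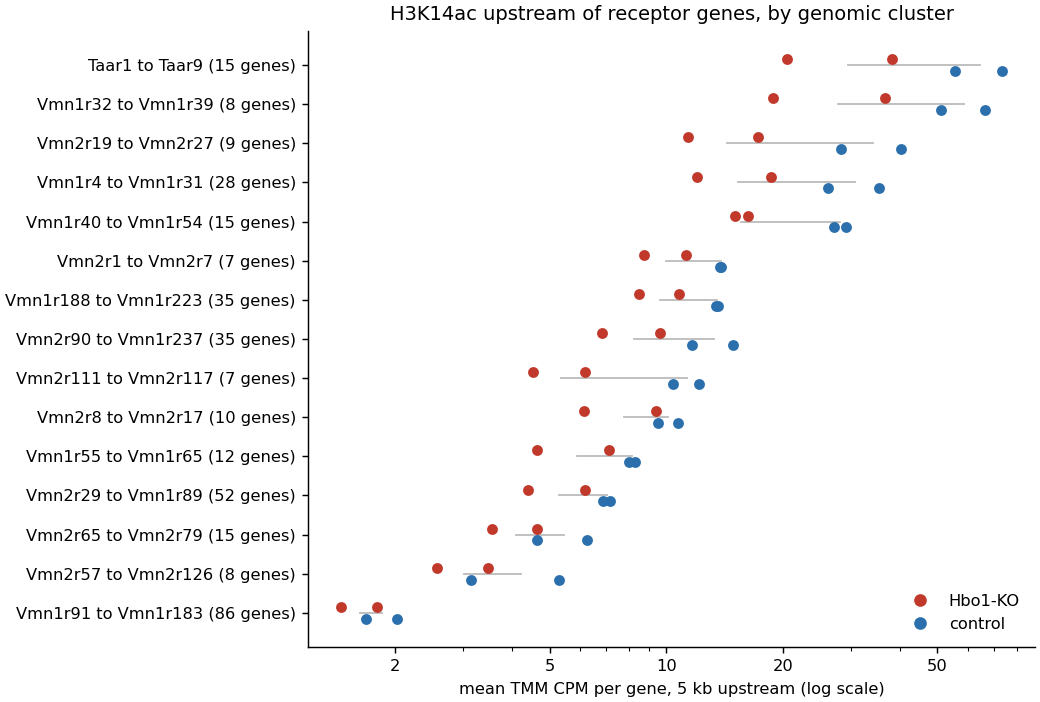
Mean upstream H3K14ac level per gene (TMM CPM, log scale) in the 15 clusters with at least 7 receptor genes, ordered by control mean. Red points are the Hbo1-KO libraries and blue points, drawn just below them, the control libraries, with a grey line between the group means. The Hbo1-KO mean is 0.457 of the control mean in Taar1 to Taar9 at the top and 0.418 in Vmn2r19 to Vmn2r27, and in Vmn1r91 to Vmn1r183 at the bottom the groups overlap.

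Across the 15 clusters, a higher control level went with a lower fold upstream and downstream, and only weakly so over gene bodies. To keep the level and the fold apart, the level was read from 1 control library and the fold taken against the other. Spearman's rho was -0.61 with the level from control replicate 1 and -0.86 with control replicate 2 upstream, -0.86 and -0.78 downstream, and -0.24 and -0.21 over gene bodies. The clusters share libraries and depth, and both folds share the Hbo1-KO libraries, so these values only describe 15 points.

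The uniqueness of the sequence was set beside the level. Of the 365 genes with a position, 86 had fewer than 20% of the 50-base words of their upstream window found once in GRCm38.p6, and their median level was 0.277 CPM in Hbo1-KO and 0.434 CPM in controls. In the 194 genes at 80% or more the medians were 10.08 CPM in Hbo1-KO and 12.4 CPM in controls. In the 86-gene array a median of 2.01% of the words occurred once, and Vmn1r101 there had 0 and 0 reads in Hbo1-KO and 5 and 4 in control libraries. The low chromosome 5 cluster was 93.2% unique, and the Vmn2r65 to Vmn2r79 cluster, at 4.11 CPM in Hbo1-KO and 5.44 CPM in controls, 89.9% unique. The part of unplaced reads in a low level was not tested.

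Restricted to genes with at least 80% unique words, 120 genes were tested and 34 were lower, with a median log2 fold of -0.86. Vmn1r14 was the 1 tested gene under 20% and was called lower, and its RefSeq span of 8196 bp is far from the deposited length of 912 bp, so its window here may not be the one the authors counted. RefSeq spans came within 10% of the deposited length for 346 of the 365. How the authors treated reads with several matches, and the read length, are not given in the sources used here. In total 118 genes had a promoter stretch within 15 edits of another member's, in 445 pairs, 56 of them identical, and counts of these genes are uncertain.

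**Figure D5:**
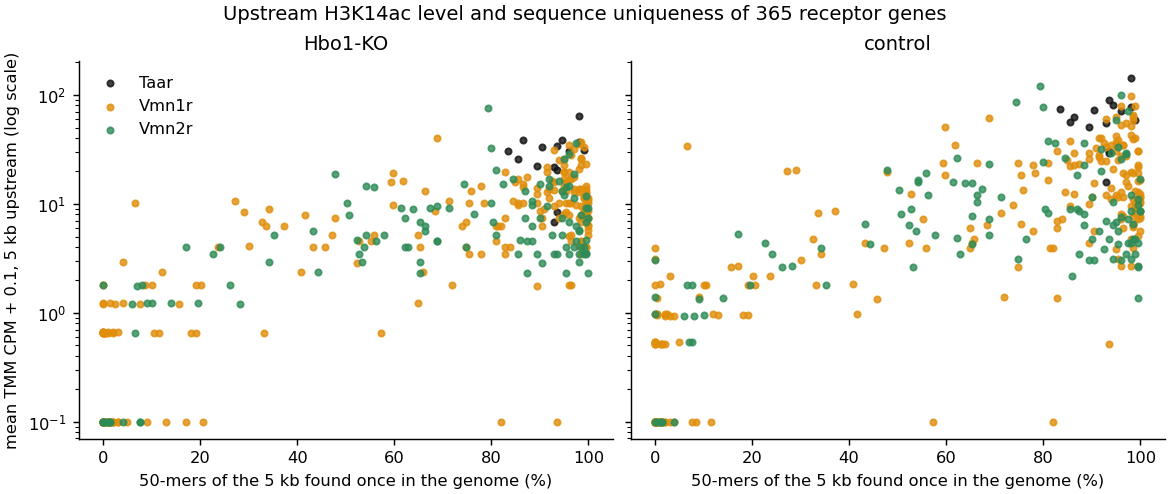
Mean upstream H3K14ac level (TMM CPM plus 0.1, log scale) of 365 receptor genes against the percentage of 50-base words of the 5 kb window found once in the genome, for Hbo1-KO (left) and control (right). Each point is a gene, coloured by family. Genes under 20% have medians of 0.277 CPM in Hbo1-KO and 0.434 CPM in controls and reach 33.6 CPM in controls, while genes above 80% spread from 0 CPM to 142 CPM in controls.

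Over gene bodies the families had different median folds. Taar gene bodies averaged 1.02 and 1.83 CPM in Hbo1-KO and 3.93 and 2.60 CPM in controls, and Vmn1r bodies 0.333 and 0.452 CPM against 0.638 and 0.523 CPM. Vmn2r bodies, much longer, averaged 4.13 and 5.24 CPM in Hbo1-KO and 6.58 and 5.98 CPM in controls. Of 137 receptor genes tested, 13 were called lower, beside 15.2% of all genes, and 0 higher, beside 23.1%, and both Hbo1-KO libraries lay below both controls in 58, beside 39.4%, and above both in 14, beside 40.6%. A share of 9.49% lower is below that of all genes. DESeq2, run on every receptor gene with a read, called 4 lower and 0 higher. At an unadjusted p under 0.05 edgeR gave 28 lower and 2 higher, beside 4519 and 5859 of 21393 genes. Lower calls numbered 2 without Hbo1-KO replicate 1, 34 without Hbo1-KO replicate 2, 0 without control replicate 1 and 2 without control replicate 2.

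The median log2 fold over gene bodies was -1.17 for the 15 Taar genes, -0.83 for 29 Vmn1r genes and -0.04 for 93 Vmn2r genes tested, beside -0.98 for Olfr and 0.02 for all genes. Only 29 of the 230 Vmn1r bodies passed the filter, which reads from either group alone can meet. Without the filter the Vmn1r median was -0.352 over 183 genes. The Vmn2r median turned to 0.29 with library totals, 0.17 with pooled totals, 0.70 with Olfr scaling and 0.29 with a GC correction. Per kb of deposited length, the median Taar body held 1.17 CPM in Hbo1-KO and 2.94 CPM in controls. In controls this stood at percentile 96.2 of all genes. The median gene held 0.825 CPM per kb in Hbo1-KO and 0.675 CPM per kb in controls. Vmn1r bodies had medians of 0.235 and Vmn2r bodies of 0.144 CPM per kb in Hbo1-KO, and 0.212 and 0.127 CPM per kb in controls.

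The Vmn2r genes that were lower over their bodies were few and mostly neighbours. Vmn2r23 had 10.9 and 19.7 CPM in Hbo1-KO and 50.9 and 33.1 CPM in controls (log2 fold -1.45 ± 0.35 SE, edgeR adjusted p 8.95e-04). Vmn2r22, Vmn2r24 and Vmn2r26 of the same chromosome 6 cluster were lower with log2 folds of -1.40 ± 0.46, -1.003 ± 0.37 and -0.80 ± 0.31 (SE) and edgeR adjusted p of 0.0123, 0.0284 and 0.0372. The fifth was Vmn2r120 on chromosome 17 (log2 fold -0.92 ± 0.35 SE, edgeR adjusted p 0.0303). In this chromosome 6 cluster Vmn2r26 held 26.1 and 33.4 CPM in Hbo1-KO and 62.8 and 41.0 CPM in controls, so that its body was called and its upstream window was not, a difference that was not itself tested. Vmn2r22's body had only 26.9% unique words.

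Vmn1r40 had 3 and 3 reads over its body in Hbo1-KO and 28 and 29 in controls, or 0.555 and 0.447 CPM against 2.77 and 2.87 CPM (log2 fold -2.47 ± 0.69 SE, edgeR adjusted p 0.00386). The other Vmn1r calls were Vmn1r54 and Vmn1r13, with 2 to 7 reads in Hbo1-KO and 13 to 29 in controls. Taar5 had 4 and 11 body reads in Hbo1-KO and 58 and 34 in controls (log2 fold -1.89 ± 0.61 SE, edgeR adjusted p 0.0112), and Taar7a 3 and 9 against 46 and 30 (log2 fold -1.93 ± 0.62 SE, edgeR adjusted p 0.0119). The groups did not overlap in any of these, which was a condition for naming them. Vmn1r236 and Vmn1r4 overlapped between groups (log2 folds -0.61 ± 0.59 and -0.31 ± 0.58 SE, edgeR adjusted p 0.414 and 0.688).

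With TMM scaling, which is set within each region class, folds downstream lay closer to 0 than upstream. With totals pooled over the region classes, the median log2 fold of all genes was 0.46 upstream and -0.04 downstream. The distance of the receptor median from it was then -0.78 upstream and -0.30 downstream, beside -0.78 and -0.31 with TMM. This distance hardly moved, as a scaling moves all genes nearly alike. The gap between the classes in raw folds does depend on the scaling, since the median of all genes with TMM was -0.09 upstream and -0.03 downstream. Taar genes averaged 35.4 and 50.1 CPM in Hbo1-KO and 75.9 and 63.9 CPM in controls, Vmn1r genes 9.88 and 10.96 CPM against 13.6 and 11.8 CPM, and Vmn2r genes 10.9 and 10.8 CPM against 11.96 and 11.6 CPM. Family means did not overlap between the groups, though the Vmn2r values lay close together. The median gene, over all members whether tested or not, was higher in Hbo1-KO. It held 7.36 CPM against 5.55 CPM in controls for Vmn1r and 8.07 CPM against 5.55 CPM for Vmn2r genes. Few reads lie behind these medians. Median counts were 4 and 5.5 in Hbo1-KO and 6 and 9 in controls for Vmn1r, and 4 and 5 against 7 and 8 for Vmn2r. In Hbo1-KO replicate 1, 3 counts downstream are worth 5.59 CPM. Per cluster, Vmn1r91 to Vmn1r183 stood at 1.42 and Vmn2r57 to Vmn2r126 at 1.55 times the control mean, both of them higher in each Hbo1-KO library than in either control. Of 142 genes tested, 7 were called lower, beside 2.29% of all genes, and 0 higher, beside 10.8%, and 62 lay below both controls in both Hbo1-KO libraries, beside 32.7%, and 9 above, beside 29.9%. DESeq2, run on every receptor gene with a read, called 0 in either direction. At an unadjusted p under 0.05 edgeR gave 23 lower and 1 higher, beside 2293 and 3695 of 21566 genes. Leaving out Hbo1-KO replicate 1 left 1 lower call, Hbo1-KO replicate 2 13, control replicate 1 0 and control replicate 2 7. Median log2 folds were -0.66 for Taar, -0.35 for Vmn1r and -0.26 for Vmn2r, beside -0.36 for Olfr and -0.03 for all genes, and the Vmn2r median was 0.05 with Olfr scaling.

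The 7 downstream calls were 5 Taar and 2 Vmn1r genes. Taar1 had 17 and 16 reads in Hbo1-KO and 110 and 80 in controls, or 31.7 and 21.1 CPM against 86.1 and 63.8 CPM (log2 fold -1.53 ± 0.38 SE, edgeR adjusted p 0.0113). Taar8c followed (log2 fold -1.38 ± 0.40 SE, edgeR adjusted p 0.0300), and Taar7b, Taar7f and Taar8b were the other 3. Vmn1r12 and Vmn1r14, neighbours in the Vmn1r4 to Vmn1r31 cluster, had log2 folds of -1.31 ± 0.39 and -1.34 ± 0.41 (SE) and edgeR adjusted p of 0.0341 and 0.0407. Taar7a, the highest Taar gene downstream in Hbo1-KO, overlapped between groups, at 85.8 and 72.5 CPM in Hbo1-KO and 117 and 84.6 CPM in controls.

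Not all downstream windows were lower, since 105 of the 142 tested had a fold below 0. Vmn2r57 held 24.2 and 23.7 CPM in Hbo1-KO and 7.83 and 11.97 CPM in controls, and was not called, though it had the highest log2 fold of the receptor genes tested (log2 fold 1.27 ± 0.52 SE, edgeR adjusted p 0.121). Vmn2r129 held 127 and 85.7 CPM in Hbo1-KO and 99.4 and 116 CPM in controls, with overlap. Its downstream window covers nearly the same DNA as the upstream window of Vmn2r125, so the 2 genes count largely the same reads. Scaled within each region class, the log2 fold was -0.03 downstream of Vmn2r129 and -0.69 upstream of Vmn2r125. Vmn2r22 had 0 reads downstream in all 4 libraries, and 0% of the words of that window were unique.

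Ratios between families within a library do not depend on scaling. Upstream, Taar reads per Olfr read were 0.0264 and 0.0305 in Hbo1-KO and 0.0343 and 0.0319 in controls, a mean log2 difference of -0.22. Vmn1r reads per Olfr read were 0.130 and 0.115 in Hbo1-KO and 0.105 and 0.110 in controls, a log2 difference of 0.18, and Vmn2r reads gave 0.0637 and 0.0572 against 0.0521 and 0.0552, a log2 difference of 0.17. The Taar ratio was thus lower and both vomeronasal ratios were higher in Hbo1-KO, with no overlap between groups in any of the 3. The same signs held over gene bodies (-0.46 for Taar, 0.19 for Vmn1r and 0.33 for Vmn2r) and downstream (-0.39, 0.052 and 0.22). Their sizes moved widely. The Taar body value was -0.215 without Hbo1-KO replicate 1 and -0.706 without Hbo1-KO replicate 2, the Vmn1r body value 0.036 at 80% or more unique words, and the Vmn2r body value 0.866 as a median over genes.

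Taar against Vmn1r gave 0.203 and 0.265 in Hbo1-KO and 0.326 and 0.289 in controls upstream, a log2 difference of -0.41, then -0.65 over gene bodies and -0.44 downstream. Vmn2r against Vmn1r was 0.489 and 0.497 in Hbo1-KO and 0.495 and 0.501 in controls upstream, where the groups overlapped. Of 18 such ratios, 17 separated the groups with an exact two-sided permutation p of 0.333, the smallest that 6 assignments allow (adjusted 0.353 over the 18), so none could pass the threshold.

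The split of a family's reads over the 3 region classes was compared within each library. Upstream windows took 42.4% and 40.7% of Taar reads in Hbo1-KO and 38.2% and 38.7% in controls, a difference of 3.16 points (exact two-sided permutation p 0.333). Vmn1r shares were 44.98% and 42.8% in Hbo1-KO and 41.4% and 43.0% in controls, and overlapped. Vmn2r shares were 15.8% and 15.4% in Hbo1-KO and 16.004% and 15.9% in controls. Over all genes the upstream share was 16.5% and 11.4% in Hbo1-KO and 7.86% and 8.43% in controls, a difference of 5.79 points. Wilson 95% intervals of the Taar shares ran from 38.6% to 46.3% and from 38.1% to 43.4% in Hbo1-KO, and from 36.5% to 39.8% and from 36.8% to 40.5% in controls, and cover counting error only.

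The receptor genes made up 1.35% of the genes and a smaller share of the upstream reads, 0.212% and 0.396% in Hbo1-KO and 0.607% and 0.577% in controls. Over gene bodies the shares were 0.0687% and 0.0863% in Hbo1-KO and 0.0829% and 0.0855% in controls, with overlap. Taar genes alone, 0.0552% of all genes, took 0.0254% and 0.0595% of upstream reads in Hbo1-KO and 0.109% and 0.0933% in controls.

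Genes that work with these receptors in sensory neurons went both ways. Of 34 listed, 29 were tested upstream, with 7 lower (beside 14.3% of all genes), 3 higher (beside 24%), 19 not called and a median log2 fold of -0.63. H2-M10.3, a non-classical MHC molecule of Vmn2r neurons, held 20.5 and 47.6 CPM in Hbo1-KO and 111 and 116 CPM in controls (log2 fold -1.73 ± 0.54 SE, edgeR adjusted p 0.00713). H2-M10.2, H2-M9, the olfactory G protein gene Gnal, the channel genes Cnga2 and Ano2 and the receptor transport gene Rtp2 were lower as well.

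The 3 higher genes were Gnai2, the G protein subunit of Vmn1r neurons that blood cells also use, Ldb1, a cofactor of LIM homeodomain factors that blood cells use too, and the channel gene Cnga4. Gnai2 held 100.01 and 63.2 CPM in Hbo1-KO and 21.7 and 30.7 CPM in controls (log2 fold 1.63 ± 0.49 SE, edgeR adjusted p 0.00502), and Ldb1 171.6 and 79.8 CPM against 14.8 and 25.7 CPM (log2 fold 2.63 ± 0.55 SE, edgeR adjusted p 4.69e-05). Trpc2, the transduction channel of vomeronasal neurons, was not called (log2 fold 0.23 ± 0.51 SE, edgeR adjusted p 0.729). Over gene bodies 7 of 29 were lower (beside 15.2% of all genes) and 2 higher (beside 23.1%), with Gnao1, the G protein gene of Vmn2r neurons, at 143 and 177 CPM in Hbo1-KO and 437 and 322 CPM in controls (log2 fold -1.25 ± 0.31 SE, edgeR adjusted p 0.00136). Downstream 0 of 32 were lower (beside 2.29%) and 1, Gnai2, was higher (beside 10.8%).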

How the data were processed

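H3K14ac CUT&Tag was measured in 2 Hbo1-KO and 2 heterozygous control libraries of LSK cells. The deposited files hold whole-number counts per Entrez gene, made by the authors over gene bodies, the 5 kb upstream and the 5 kb downstream, per the file headers. The submitters' processing notes name featureCounts and mm10. For the aligner, the read length, duplicates, multi-match reads and spike-in, no detail is given in the sources used here. The authors' deposited lengths in bp (a score column beside the counts) were used for levels per kb. Series and per-library tables held equal counts for all 27179 genes. No column of another sample was present.

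Each region class was fitted over all genes with edgeR 4.0.16 in R 4.3.3 (glmQLFit, filterByExpr with minimum count 10 and minimum total 15, TMM), with Benjamini-Hochberg adjustment over the genes tested and a threshold of 0.05. The standard error is the size of the log2 fold divided by the square root of F. Ratios and shares were tested with an exact permutation test over samples, two-sided, with 6 assignments. Intervals are 95% Wilson intervals. PCR reads are not independent molecules. Symbols and promoters were matched by Entrez identifier in RefSeq tables of GRCm38.p6, which named 25275 genes and gave a position to 365 receptor genes. Sequence uniqueness is the share of 50-base words, sampled every 25 bases, that occur once on either strand of the primary chromosomes. DESeq2 1.42.0, numpy 2.4.6, pandas 2.3.3 and scipy 1.17.1 under Python 3.11.15, and matplotlib 3.10.9, were also used.

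Named genes were, per region class and family, the 4 Vmn1r, 4 Vmn2r and 2 Taar genes with the smallest p and groups apart, and the 2 (Taar 1) with the highest level, plus Taar1, Taar5, Vmn1r85, Vmn1r89, Vmn2r1, Vmn2r22, Vmn2r26 and Vmn2r116. The members, lists and rules were chosen with earlier results of these data known. Further genes named as called, and Vmn1r14 upstream, were named after their values were seen.

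The fit was also run on simulated counts with known changes, and the outcome is not reported here. A gene that was not called may still differ between the groups. Alternatives were other scalings, the DESeq2 Wald test, other filters, each library left out, the replicate number as a block and a GC correction (loess span 0.3). The crossed block and the restriction to unique sequence were chosen after seeing the data. The same-number correlations of deviations from group means were -0.28 upstream, -0.36 over gene bodies and -0.22 downstream. With 2 libraries a group, these values cannot tell whether libraries of the same number were handled together. The call of 1 LSK marker gene is not reported here.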

Additional observations from a re-analysis of the deposited data

How the results depend on the processing

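Lower calls were 42 upstream, 13 over gene bodies and 7 downstream as reported, and fewer under many settings. Fewer samples, or fewer or more genes, entered under some of the settings, and the cause of the changes was not tested. Upstream they numbered 3 with totals pooled over the region classes, 1 with Olfr scaling, 8 with the DESeq2 Wald test, 8 at a mean count of at least 50, 12 with a GC correction and 0 to 2 with a library left out. Over gene bodies they were 4 with library totals, 4 with pooled totals, 0 with Olfr scaling, 4 with DESeq2, 5 without a filter, 2 at a mean count of at least 50, 7 with the GC correction, 8 at 80% unique words and 0 to 34 with a library left out (34 without Hbo1-KO replicate 2, 0 without control replicate 1). Downstream they were 11 with library totals, 0 with Olfr scaling, 0 with DESeq2, 1 without a filter, 3 at a mean count of at least 50, 2 with the GC correction and 0 to 13 with a library left out (13 without Hbo1-KO replicate 2, 0 without control replicate 1). Higher calls, 0 in each class, were 3 upstream without a filter, 2 over gene bodies with library totals, 1 with Olfr scaling and 2 with the GC correction, and downstream 1 with the GC correction and 0 to 2 with a library left out.

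With the replicate number as a block, lower calls were 13 upstream, 2 over gene bodies and 4 downstream; with the replicate block and GC correction together they were 4, 4 and 1, with 1 higher over gene bodies. In the crossed pairing they were 61, 33 and 18. The medians with the block and GC correction were -0.40 upstream, -0.052 over gene bodies and -0.033 downstream, 0.31 for Vmn2r bodies and 0.019 for Vmn2r downstream.

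The median log2 fold of the receptor genes upstream (-0.87) was -0.31 with pooled totals, 0.07 with Olfr scaling, -0.55 with DESeq2, -0.573 without a filter, -0.38 with the GC correction and -0.94 to -0.49 with a library left out. Over gene bodies (-0.32) it was 0.033 with library totals, -0.087 with pooled totals, 0.41 with Olfr scaling, -0.68 at a mean count of at least 50, -0.047 with the GC correction and -0.54 to -0.17 with a library left out. Downstream (-0.35) it was -0.54 with library totals, -0.017 with Olfr scaling, -0.035 with DESeq2, -0.078 without a filter, -0.47 at a mean count of at least 50, -0.042 with the GC correction and -0.42 to -0.15 with a library left out.

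As shares of all reads, not of Olfr reads, the log2 differences were -0.97, -0.22 and -0.50 for Vmn1r and -0.98, -0.078 and -0.34 for Vmn2r (upstream, body, downstream). The upstream share difference of Vmn1r was -0.95 points as a median over genes, and that of Vmn2r 0.064 points at 10 or more counts and 0.18 points as a median.

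Family medians that changed sign were 0.18 (Vmn1r) and 0.022 (Vmn2r) upstream with Olfr scaling. For Vmn2r bodies they were 0.29 with library totals, 0.17 with pooled totals, 0.70 with Olfr scaling, 0.29 with the GC correction, 0.081 at 80% unique words, 0.053 without Hbo1-KO replicate 1 and 0.15 without control replicate 2. For Vmn2r downstream they were 0.05 with Olfr scaling, 0.06 with DESeq2, 0.23 at a mean count of at least 50, 0.079 with the GC correction and 0.0 without Hbo1-KO replicate 1.

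Named genes that changed sign had none of them been called. Upstream with Olfr scaling, Vmn2r125 was 0.30, Vmn2r1 0.088, Vmn2r26 0.11 and Vmn1r89 0.36 on the log2 scale, and Vmn1r89 was 0.25 with the GC correction with and without the block (0.248 and 0.251). Over bodies, Vmn1r236 was 0.093 with Olfr scaling and -2.47 to 0.17 with a library left out, Vmn1r4 was 0.038 with library totals, 0.41 with Olfr scaling and -0.72 to 0.041 with a library left out, and Vmn2r1 was 0.33 with Olfr scaling. Downstream, Vmn2r129 was 0.02 with DESeq2 size factors, 0.31 with Olfr scaling, 0.23 at a mean count of at least 50, -0.33 to 0.30 with a library left out (0.089 without control replicate 2), and 0.085 and 0.062 with the GC correction without and with the block. Vmn2r125 was -0.19 with library totals, -0.023 without a filter, -0.18 without Hbo1-KO replicate 1 and -0.05 without control replicate 1. Vmn2r1 was 0.05 with Olfr scaling, and 0.083 and 0.051 with the GC correction without and with the block; Vmn2r26 was -1.21 to 0.15 with a library left out and Vmn1r85 0.013 with the GC correction.

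With 3 counts as the least seen, a level under 3.41 CPM upstream, 0.555 CPM over gene bodies or 5.59 CPM downstream in Hbo1-KO replicate 1, where 3 counts are worth the most, could not be told from 0, which covers most of the genes without unique sequence. With 2 libraries a group, leaving 1 out assumes that the lone library varies like the other group.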
